A study of Homo sapiens with 24 samples.

Results

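The genes described here are those in which the transcriptional response to an extract of Pulsatilla chinensis could be compared between A549 and Huh7 cells. Members had to average more than 5 counts across the 6 control and P. chinensis libraries of A549 cells and across those of Huh7 cells, which left 13022 of the 14585 genes in the deposited table. A further 591 genes passed this minimum in A549 cells only and 970 in Huh7 cells only, and they were not compared. For each member, the log2 fold change of treated against control A549 cells was set against the same value in Huh7 cells, and the difference between them (A549 minus Huh7) was tested itself. A positive difference means that the log2 fold change was higher in A549 cells, and a negative one that it was lower there.

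A549 is a human lung carcinoma line that carries wild-type p53, and Huh7 is a human liver carcinoma line that carries a mutant form of it. The study treated both lines with extracts of several herbs used in traditional Chinese medicine and sequenced total RNA after ribosomal RNA depletion. The groups used here are A549 control, A549 treated with Pulsatilla chinensis extracts, Huh7 control and Huh7 treated with the same extracts, with 3 libraries in each group. All 4 groups are labelled as wild type in genotype, each line is 1 established culture line, and the dose and time for the sequenced cells and the treatment of the controls are not given in the sources used here. Nothing in the labels says that the replicates of a group came from separate cultures, so p-values measure the spread between these libraries, which may be technical.

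In background, p53 is a transcription factor that activates genes for cell cycle arrest, DNA repair and cell death after damage or when its inhibitor MDM2 is blocked. The gene for MDM2, a ubiquitin ligase, is itself one of its targets, and the arrest that follows through the inhibitor p21 (CDKN1A) is known to lower genes of DNA replication and of mitosis. Liver cells make cholesterol and fatty acids under the SREBP factors, whose activity falls when sterols accumulate. Immediate early genes such as FOS and EGR1 answer growth and stress signals within a short time, and NF-kB drives inflammatory genes in most cell types.

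The libraries summed to between 8160045 and 10616955 counts in A549 cells and between 13259204 and 24345541 in Huh7 cells, so the Huh7 values carry less counting error. The squared differences between pairs of replicates were, in the median over genes, 2.75 to 3.58 times those that sampling alone gives. No pair looked like 1 library deposited as a pair. The within-group SD of log2 CPM (the usual count relative to the library total, scaled by the trimmed mean of M values) had a median over genes of 0.143 in A549 and 0.0991 in Huh7 cells. The summed line markers followed the labels, while 5 of the 15 A549 markers did not do so singly. Scaled over the whole table, the 15 A549 markers in the table summed to 12959 to 17196 CPM in A549 and to 1732 to 2088 CPM in Huh7 libraries, where KRT7, KRT81, MUC5AC and MUC5B were at 0 in all 3 control libraries, and the 16 Huh7 markers summed to 15710 to 24560 CPM in Huh7 and to 84.9 to 193 CPM in A549 libraries. In the control libraries, 10 of the 15 A549 markers were higher in A549 and 5 were higher in Huh7 cells, namely S100P (77.1–82.3 CPM in Huh7 against 3.76–11.5 CPM in A549 controls), AGR2 (230.2–245 against 72.9–92.3), GDA (85.2–89.7 against 11.7–19.1), KRT19 (23.6–26.8 against 10.7–16.6) and SFTPB (2.5–3.85 against 1.16–1.48). All 16 Huh7 markers were higher in Huh7 controls. Both sums were lower in the treated than in the control libraries of their own line. Of the 14 markers of blood, vessel and stromal cells, 8 were in the table. They summed to 6.53 to 50.7 CPM in A549 libraries, and in Huh7 libraries to 741 to 801 CPM in controls and 441 to 487 CPM after treatment, of which LYZ gave 689 to 731 and 398 to 425 CPM. Their part in the results was not tested.

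In the joint fit of both lines, P. chinensis moved a similar number of genes in each, and some of them moved the same way in both. At an adjusted p below 0.05 (the quasi-likelihood test of edgeR, adjusted by Benjamini and Hochberg over the 13022 genes, as for every adjusted p below), 2262 genes (17.4% of those tested) rose and 2574 (19.8%) fell in A549 cells, 4836 (37.1%) in all. In Huh7 cells, 2328 (17.9%) rose and 2530 (19.4%) fell, 4858 (37.3%) in all. The counts of gene lists below stand against these shares, and a count near them is no trait of its list. Of the genes that rose, 852 did so in both lines, which is 37.7% of those in A549 and 36.6% of those in Huh7 cells. Of the genes that fell, 1094 did so in both lines (42.5% and 43.2%). The called genes moved by a median of 0.45 on the log2 scale, sign aside, in A549 and of 0.41 in Huh7 cells. Of these called genes, 860 and 547, respectively, passed an absolute value of 1. Across the 13022 genes, which share libraries and are not independent replicates, the log2 fold changes of the lines had a Pearson correlation of 0.31. The joint fit takes 1 estimate of the spread per gene for both lines, and the similar number of calls depended on it. With each line fitted on its own 6 libraries, 1807 genes rose and 2188 fell in A549 cells, against 2731 and 2833 in Huh7 cells. The voom method of limma gave 2034 and 2309 in A549 cells, against 2895 and 3180 in Huh7 cells. In bulk RNA, fewer cells of a state and less RNA per cell cannot be told apart.

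The difference between the lines was called in 3884 genes (29.8%), with 1758 (13.5%) higher and 2126 (16.3%) lower in A549 cells. Unadjusted, 5203 genes (40%) had p below 0.05. The median absolute difference of the called genes was 0.57 on the log2 scale, and that of all genes was 0.29. Combined with the calls in each line, the genes fell into response classes. There were 1318 genes (10.1%) with a response in A549 cells only, 596 up and 722 down, and 1188 (9.12%) with a response in Huh7 cells only, 593 up and 595 down, where the difference between the lines was called as well. A further 1298 genes (9.97%) moved the same way in both lines with no called difference, and 648 (4.98%) moved the same way by unequal amounts. Opposite directions were called in 568 genes (4.36%). In 2160 genes (16.6%) only 1 line was called but the difference was not, so a response confined to that line was not shown. The difference alone was called in 162 genes (1.24%), and 5680 (43.6%) were not called in any of the 3 tests.

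**Figure D1:**
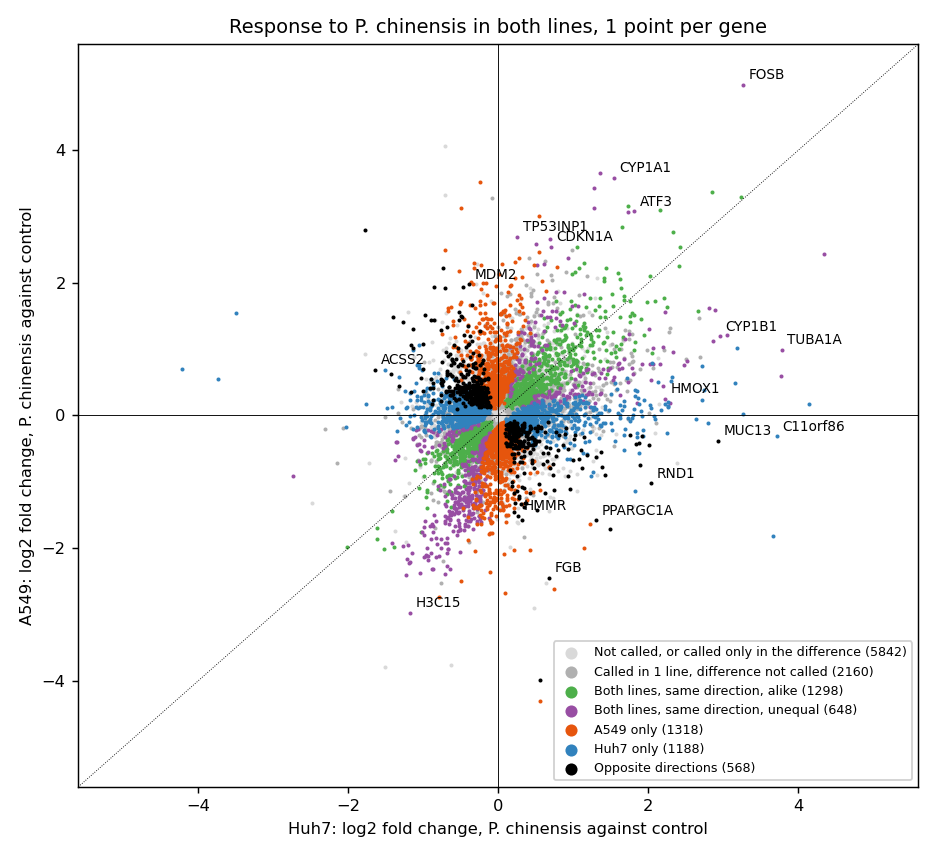
Log2 fold change of P. chinensis against control in Huh7 cells (x axis) and in A549 cells (y axis), with 1 point for each of the 13022 genes, coloured by response class, and a dotted line where both lines are equal. The 568 genes with opposite directions lie in the upper left and lower right quadrants of the plot, and the purple band below the dotted line at the lower left holds most of the 356 genes that fell further in A549 than in Huh7 cells.

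The unequal class was lopsided among falls. Of its 424 genes that fell in both lines, 356 fell further in A549 and 68 further in Huh7 cells, while its 224 rises were split into 104 and 120. Control levels did not separate the classes that are specific to a line: the median control level of the A549 only genes was 49.8 CPM in A549 and 51.2 CPM in Huh7 cells, and that of the Huh7 only genes 49.9 and 53 CPM. Genes called nowhere were lower, at a median of 14.5 and 13.7 CPM, and the median standard error of their difference was 0.242 against 0.118 for the A549 only genes. Libraries of treated and control cells did not overlap, with the treated ones higher, in 2912 genes (22.4%) in A549 and 3388 (26%) in Huh7 cells, and with the treated ones lower in 2947 (22.6%) and 3606 (27.7%).

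Most of the genes with opposite directions moved by small amounts. The smaller of the absolute log2 fold changes of both lines had a median of 0.27 over the 568 genes, and 81 genes passed 0.5 in both lines, 50 of them up in A549 cells and 31 down. In 531 of the 568 genes, treated and control libraries did not overlap in either line. The genes were chosen by their calls in both lines on these same libraries, so this count is no separate support. With A549 up and Huh7 down there were 309 genes, and with the reverse 259.

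MDM2, the ubiquitin ligase that restrains p53, stood at 282, 288 and 280.1 CPM in the A549 control libraries and at 1117, 1066 and 1159.6 CPM after treatment. In Huh7 cells it was at 316, 311 and 308 CPM in controls and at 237, 243 and 232 CPM after treatment. The A549 groups were far apart upward and the Huh7 groups were apart downward, with no overlap in either line. The log2 fold changes (± SE) were 1.98 ± 0.04 and -0.39 ± 0.04, and they differed by 2.37 ± 0.05 (adjusted p = 4.01e-12). DRAM1, a lysosomal membrane protein that p53 induces in autophagy, went from 39–45.8 to 79.4–91.1 CPM in A549 cells and from 133–147 down to 57.3–65.6 CPM in Huh7 cells. Its difference was 2.16 ± 0.11 (adjusted p = 1.08e-08).

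ABCA1, the pump that exports cholesterol from cells, was at 49.7, 44.9 and 46.4 CPM in A549 controls and at 179.6, 168 and 190.3 CPM after treatment, against 307, 312 and 300.5 CPM in Huh7 controls and 222, 219 and 221 CPM after treatment. Every treated A549 library was above every A549 control, and every treated Huh7 library below every Huh7 control, with a difference of 2.40 ± 0.07 (adjusted p = 9.04e-11). SLCO2B1, a carrier for organic anions and drugs, had log2 fold changes of 1.94 ± 0.13 in A549 and -0.86 ± 0.09 in Huh7 cells, and at 2.80 it had the highest difference among called genes that averaged 50 counts or more in each line and had no overlap of libraries. GREB1, known as an oestrogen-responsive gene, followed with 1.51 and -0.98. LRP1, a scavenger receptor that takes up lipoproteins, went from 85.7–90.1 to 149–183 CPM in A549 cells and from the much higher 2013–2056 to 1229–1271 CPM in Huh7 cells. The calcium channel subunit ORAI3 (1.29 and -0.77) and NAV2 (0.80 and -0.76) completed the 6 genes with A549 up that ranked highest by the smaller of their absolute log2 fold changes in both lines, the others being SLCO2B1, GREB1, LRP1 and DRAM1.

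In the reverse direction, PPARGC1A, a coactivator of mitochondrial biogenesis and fasting metabolism, was at 56.9, 51.8 and 47.7 CPM in A549 controls and 18.6, 18.3 and 15.3 CPM after treatment. In Huh7 cells it was low, at 2.25, 2.2 and 1.75 CPM in controls and 5.33, 5.4 and 4.94 CPM after treatment. It thus fell in A549 and rose in Huh7 cells with no overlap in either line, and the difference was -2.88 ± 0.19 (adjusted p = 8.25e-08). RND1, a small GTPase that rounds cells, fell from 13.1–15.8 to 4.82–8.32 CPM in A549 and rose from 6.85–7.08 to 26.2–32 CPM in Huh7 cells. ZC3H12A, a ribonuclease that degrades inflammatory transcripts, went from 36.5–48.4 to 19.8–33.1 CPM in A549 and from 17.3–20.7 to 35.6–44.3 CPM in Huh7 cells. CEBPD, a factor of the acute phase response, had log2 fold changes of -0.90 and 0.73, EDARADD of -0.91 and 0.93, and RBM39, a splicing factor, of -0.73 and 0.72. MUC13, a membrane mucin, rose from 4.14–4.4 to 30.2–34.6 CPM in Huh7 cells while it fell from 23–24.7 to 17.2–19.1 CPM in A549 cells, a difference of -3.31 ± 0.14.

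**Figure D2:**
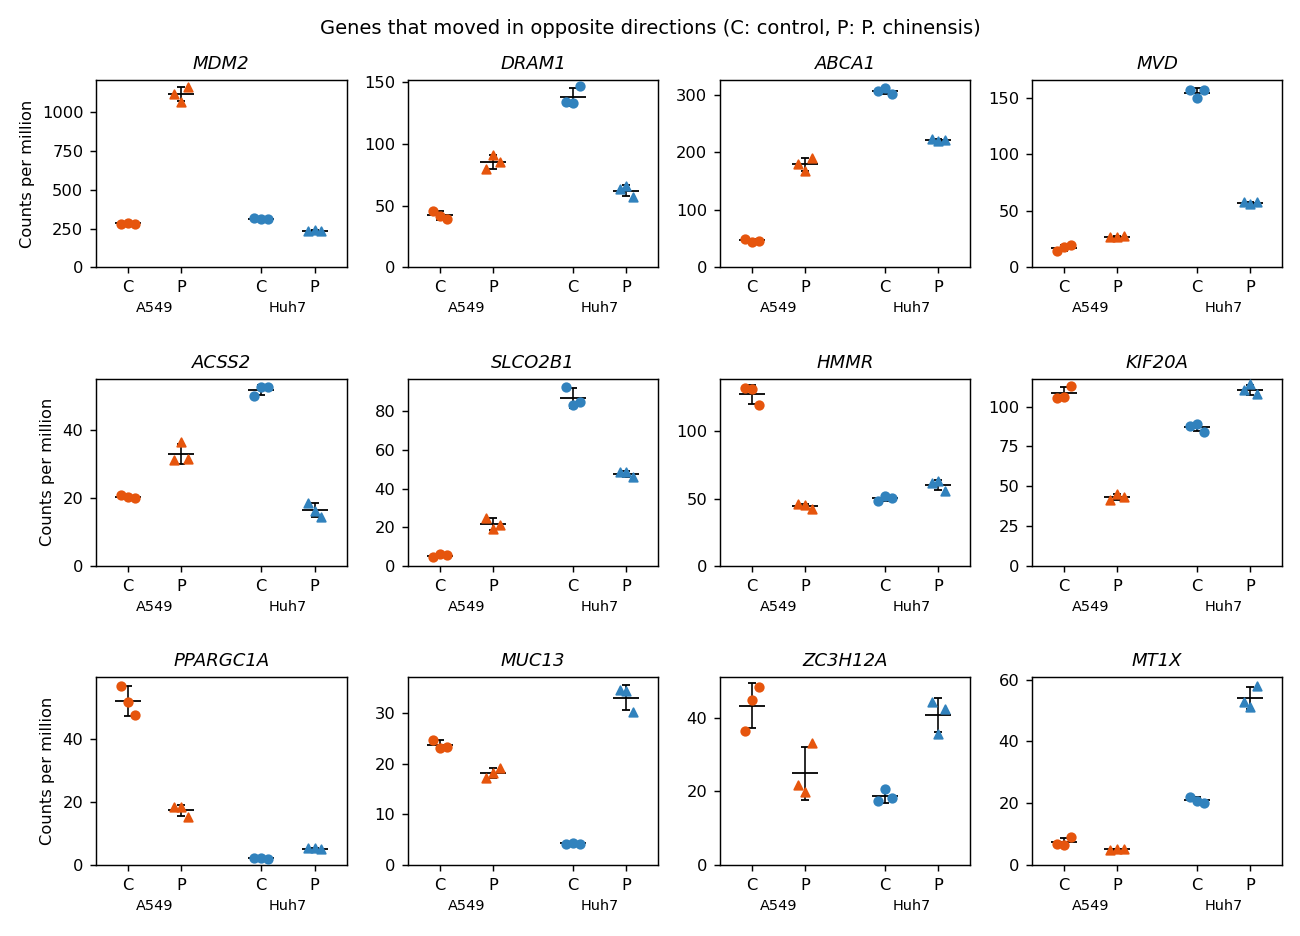
CPM (y axis, from 0) of 12 genes with opposite directions in control (C, circles) and P. chinensis (P, triangles) libraries of A549 (orange) and Huh7 cells (blue), 3 libraries per group, with a bar at the mean and whiskers of 1 SD. MDM2 rises to 1066 to 1160 CPM in A549 cells and falls to 232 to 243 CPM in Huh7 cells, and the lower row shows the reverse, with MUC13 up from about 4 CPM in Huh7 controls to 30.2 to 34.6 CPM.

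Genes of the p53 pathway rose in A549 cells and mostly did not in Huh7 cells. Of the 52 listed p53 targets tested, 48 rose and none fell in A549 cells, and 19 rose and 5 fell in Huh7 cells. The difference was higher in A549 cells for 38 of them and lower for 4. The median log2 fold change over the list was 1.04 in A549 and 0.14 in Huh7 cells, against 0.01 and 0.00 over all genes, and the median difference was 0.94 against -0.02. By class, 25 of the 52 responded in A549 cells only, 12 in both by unequal amounts, 7 in both alike, 4 in opposite directions, 1 in Huh7 cells only, and 3 were not called. The 4 opposite members were MDM2, DRAM1, CCNG1 (a cyclin that acts back on p53) and FAM210B.

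CDKN1A, which encodes the cyclin-dependent kinase inhibitor p21, had 70.1, 77.6 and 95.5 CPM in A549 controls and 485, 457 and 481 CPM after treatment, and 15.3, 10.8 and 12.9 CPM in Huh7 controls and 22.2, 20.2 and 21.9 CPM after treatment. It rose in both lines without overlap, by 2.54 ± 0.10 and 0.71 ± 0.12, and by more in A549 cells (difference 1.84 ± 0.16, adjusted p = 1.43e-06). TP53INP1, which promotes p53-dependent arrest and death, had the largest difference of the list, with 2.70 ± 0.11 in A549 and 0.25 ± 0.10 in Huh7 cells, where its call was lost with the size factors of DESeq2. SESN1, a stress sensor that restrains mTOR, went from 10.4–13 to 37.6–39.8 CPM in A549 cells and lay at 11–12.9 CPM in control and 11–11.9 CPM in treated Huh7 cells, where the groups overlapped. FDXR, a mitochondrial reductase, rose in A549 cells only as well, with 1.47 ± 0.14 against -0.17 ± 0.20. DGKA, a lipid kinase, rose by 1.71 in A549 cells and had -0.50 (adjusted p = 0.398) in Huh7 cells, where it was at 0.469–2.04 CPM in controls. Without replicate 1 of the Huh7 controls its difference was not called (adjusted p = 0.058). ACER2, a ceramidase, rose from 5.24–6.86 to 19.1–21.7 CPM in A549 cells and had a log2 fold change of 0.28 ± 0.19 in Huh7 cells.

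Some p53 targets also rose in Huh7 cells. GDF15, a secreted stress cytokine, was at 63.9–73.5 CPM in control and 196–214 CPM in treated A549 cells, and at nearly the same levels in Huh7 cells, 68.5–71 and 175–201 CPM. Its log2 fold changes were 1.57 ± 0.06 and 1.43 ± 0.06, with no called difference (0.14 ± 0.09, adjusted p = 0.246). GADD45A, a DNA damage and stress gene, rose by 2.03 ± 0.21 and 1.41 ± 0.18, and its difference was called only without replicate 1 of the treated A549 libraries (adjusted p = 0.031). The 4 list members that rose further in Huh7 cells were PLK2, a stress-induced kinase (1.03 in A549 and 2.20 in Huh7 cells), the lysosomal fucosidase FUCA1 (0.68 and 1.47), CYFIP2 (1.55 and 2.21) and SERTAD1 (1.22 and 1.75). The differences of FUCA1 and CYFIP2 were lost when any of 7 and of 9 single libraries was left out (adjusted p of up to 0.0921 and 0.131). PANK1, a kinase of coenzyme A synthesis, fell in Huh7 cells only (0.24 and -0.86), and with upper quartile scaling it also rose in A549 cells. The fall of FAM210B in Huh7 cells was not called with that scaling.

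Among 43 genes of the BCL2 family, death receptors and caspases, 18 rose and 7 fell in A549 cells, 12 rose and 4 fell in Huh7 cells, and the difference was higher in A549 cells for 11 and lower for 6. Over all genes, 17.4% rose and 19.8% fell in A549 cells, and 17.9% and 19.4% in Huh7 cells. The difference was higher in A549 cells for 13.5% and lower for 16.3% of them. By its median difference, -0.04 against -0.02 over all genes, the list as a whole lay close to all genes. The pro-apoptotic gene BBC3 (PUMA) was at 4.79, 4.24 and 2.67 CPM in A549 controls and at 17, 16.4 and 15.3 CPM after treatment, and at 1.28, 3.02 and 3.16 CPM in Huh7 controls and 4.48, 3.43 and 3.37 CPM after treatment. The A549 groups were separate, and the treated Huh7 libraries were each above the controls by a small amount that was not called (adjusted p = 0.129). The difference was 1.45 ± 0.42 (adjusted p = 0.0177, and 0.0589 without replicate 3 of the Huh7 controls). The death receptors FAS (1.26 and -0.06) and TNFRSF10B (1.16 and 0.01) and the inflammatory caspase CASP4 (1.09 and 0.25) rose in A549 cells only. BCL2L11 (BIM) fell in A549 and rose in Huh7 cells (-0.57 and 0.42). BIRC3, an inhibitor of apoptosis and NF-kB target, rose in both, by 1.62 ± 0.07 from 104–110.3 CPM in A549 controls and by 2.80 ± 0.16 from 1.28–1.69 CPM in Huh7 controls.

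Genes of cell division fell in A549 cells, while in Huh7 cells the mitotic ones were split between smaller falls, small rises and no call. All 53 mitosis genes fell in A549 cells. In Huh7 cells 12 rose and 22 fell (15 and 18 with upper quartile scaling). Over all genes, 17.9% rose and 19.4% fell in Huh7 cells, and with upper quartile scaling 2960 of the 13022 rose and 1971 fell. The number of rises was thus near the general share and is no trait of the list. The difference was lower in A549 cells for 52 of the 53, with BUB3 as the exception. The list median was -1.31 in A549 and -0.10 in Huh7 cells. By class, 21 fell in both lines by unequal amounts, 19 fell in A549 cells only, 12 moved in opposite directions, and BUB3 fell in both alike. The 12 opposite genes were CCNB1, CDC20, AURKA, KIF20A, KIF4A, BIRC5, DLGAP5, HMMR, ECT2, CKS2, PTTG1 and NEK2.

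HMMR, a spindle and hyaluronan-binding protein, was at 131, 131 and 119 CPM in A549 controls and 45.7, 45.2 and 42.6 CPM after treatment, and at 48.2, 51.6 and 50.7 CPM in Huh7 controls and 61.4, 63.1 and 55.6 CPM after treatment. The fall in A549 and the smaller rise in Huh7 cells were both without overlap, with a difference of -1.77 ± 0.09 (adjusted p = 1.58e-08). KIF20A, a kinesin of cytokinesis, had -1.32 ± 0.05 and 0.35 ± 0.05, and CDC20, an activator of the anaphase-promoting complex, went from 153–165 to 72.2–77.4 CPM in A549 and from 197–203 to 245–257 CPM in Huh7 cells. The mitotic kinase NEK2 had -1.38 and 0.34, the spindle protein DLGAP5 -1.46 and 0.21, and the survivin gene BIRC5 -1.32 and 0.22. CKS2, a small partner of cyclin-dependent kinases, had the largest rise of the list in Huh7 cells (0.65 ± 0.07) beside the second smallest fall in A549 cells (-0.56 ± 0.08). PLK1, a master kinase of mitosis, went from 250.5–276 to 91–105 CPM in A549 cells and lay at 167–175 CPM in control and 156–168 CPM in treated Huh7 cells, where the log2 fold change was -0.07 ± 0.05. The members that fell most in Huh7 cells were UBE2C (-1.59 and -0.83), ASPM (-1.44 and -0.67), TOP2A (-1.57 and -0.64) and CDK1 (-1.56 and -0.64).

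The promoters of mitotic genes are known to share CCAAT boxes, bound by NF-Y, and a downstream element called the cell cycle homology region, at which the DREAM complex acts. The 150 bases before the transcription start are shown for 6 of these genes as examples, 3 that moved in opposite directions (CDC20, HMMR, KIF20A) and 3 that fell in A549 cells only (CCNB2, PLK1, PRC1). Sequences are from RefSeq on GRCh38.p14 at the start furthest upstream, 5′ to 3′ on the gene's strand. Capitals mark TTTGAA and CCAAT on either strand.
CDC20 (chr1:43358831-43358980, plus strand): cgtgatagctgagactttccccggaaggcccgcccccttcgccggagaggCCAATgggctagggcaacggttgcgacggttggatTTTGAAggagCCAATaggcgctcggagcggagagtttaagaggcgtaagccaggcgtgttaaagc
HMMR (chr5:163460482-163460631, plus strand): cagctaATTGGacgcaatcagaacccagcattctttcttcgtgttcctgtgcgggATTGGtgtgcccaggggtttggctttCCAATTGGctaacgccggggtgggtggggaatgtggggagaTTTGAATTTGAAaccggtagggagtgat
KIF20A (chr5:138178962-138179111, plus strand): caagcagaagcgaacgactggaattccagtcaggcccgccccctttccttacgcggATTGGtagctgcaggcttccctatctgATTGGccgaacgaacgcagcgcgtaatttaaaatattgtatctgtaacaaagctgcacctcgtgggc
CCNB2 (chr15:59104996-59105145, plus strand): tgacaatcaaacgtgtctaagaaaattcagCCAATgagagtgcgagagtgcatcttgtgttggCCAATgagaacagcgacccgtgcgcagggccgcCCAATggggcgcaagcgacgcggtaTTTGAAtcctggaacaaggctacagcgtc
PLK1 (chr16:23678739-23678888, plus strand): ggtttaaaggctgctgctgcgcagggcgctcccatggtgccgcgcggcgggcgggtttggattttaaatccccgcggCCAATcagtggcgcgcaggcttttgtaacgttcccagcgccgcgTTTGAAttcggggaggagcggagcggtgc
PRC1 (chr15:90994536-90994685, minus strand): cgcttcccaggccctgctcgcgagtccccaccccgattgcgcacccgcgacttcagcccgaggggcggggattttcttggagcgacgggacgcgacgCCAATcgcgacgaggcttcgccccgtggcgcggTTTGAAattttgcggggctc

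CCAAT stood on 1 strand or the other in all 6, and TTTGAA in 5, with no copy in KIF20A. In HMMR, CCAAT copies on both strands overlap and the TTTGAA copies lie end to end. The search covered 250 bases before to 50 bases after the start of 10622 of the 13022 genes (81.6%), with 1 start per gene. Among the 45 mitosis genes with a promoter, 32 (71.1%) held TTTGAA and 34 (75.6%) CCAAT, against 10.3% and 37% of the 10622 and 15.5% of all 27305 promoters in the table for TTTGAA. By class, TTTGAA was found in 6 of 10 opposite mitosis genes, in 12 of 19 of those that fell in both lines and in 14 of 16 of those that fell in A549 cells only, and CCAAT in 10 of 10, 13 of 19 and 11 of 16. Over all genes, the share with TTTGAA was 21.5% in those that fell unequally in both lines, 17.7% in those that fell in A549 cells only, 12.7% in those down in A549 and up in Huh7 cells, and 8.96% in those that fell in Huh7 cells only. These matches describe letters in a window and are no test of binding.

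An arm of the p53 response element, searched by its usual consensus on both strands, was found in 7 of 43 p53 targets with a promoter (16.3%) and in 5.39% of the 10622. That consensus is a palindrome, so a match on 1 strand is also a match on the other. AEN, a nuclease that p53 induces, and RPS27L, a ribosomal protein paralogue, are shown as list members with a match before the start, which is in capitals. Both rose in A549 cells only, AEN by 0.66 ± 0.06 against 0.08 ± 0.06 in Huh7 cells and RPS27L by 0.98 ± 0.07 against -0.03 ± 0.07.
AEN (chr15:88621190-88621339, plus strand): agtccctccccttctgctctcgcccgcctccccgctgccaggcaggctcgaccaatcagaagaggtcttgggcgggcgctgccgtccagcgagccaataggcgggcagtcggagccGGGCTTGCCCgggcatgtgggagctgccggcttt
RPS27L (chr15:63157478-63157627, minus strand): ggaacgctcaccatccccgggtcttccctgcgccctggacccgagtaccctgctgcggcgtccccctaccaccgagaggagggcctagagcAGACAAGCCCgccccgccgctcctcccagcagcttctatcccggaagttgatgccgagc

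DNA replication genes fell in both lines and further in A549 cells. Of the 50 replication and S phase genes, 48 fell in A549 and 41 in Huh7 cells, none rose in either, and the difference was lower in A549 cells for 45. The medians were -1.31 and -0.51. By class, 38 fell in both by unequal amounts, 7 in A549 cells only, 3 in both alike, and LIG1 and RRM2 were not called. MCM5, a subunit of the replicative helicase, was at 174, 169 and 174 CPM in A549 controls and 57.9, 57 and 53.1 CPM after treatment, and at 176, 194 and 183 CPM in Huh7 controls and 111, 116 and 109 CPM after treatment. Both lines fell without overlap, by -1.62 ± 0.05 and -0.71 ± 0.05 as log2 fold changes, with a difference of -0.91 ± 0.07 (adjusted p = 5.07e-07). The replication factors GINS2 (-1.81 and -0.55) and MCM10 (-1.67 and -0.45) and the repair gene RAD51AP1 (-1.88 and -0.41) had the widest differences. In Huh7 cells RAD51AP1 was not called (adjusted p = 0.0555) and its groups overlapped. The 3 that fell alike were PCNA, the sliding clamp (-0.48 ± 0.04 and -0.58 ± 0.04), POLD1 (-1.04 and -0.78) and TYMS (-0.55 and -0.43). Without replicate 1 of the A549 controls, POLD1 fell further in A549 cells (adjusted p of the difference 0.0487). The recombination gene RAD54L, outside this list, fell from 22.7–27 to 2.08–8.44 CPM in A549 cells and went from 39.8–43.4 to 32.4–36.4 CPM in Huh7 cells, where it was not called (adjusted p = 0.283).

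The replication-dependent histone genes, which are transcribed in S phase, followed the replication genes with larger falls. Of 53 tested, 49 fell in A549 and 50 in Huh7 cells and none rose, and the difference was lower in A549 cells for 47. Their medians were -1.94 and -0.83. These genes are near-identical copies, so the deposited estimates could share reads between them, and each gene's value is uncertain on its own. H2AC14 had 153, 181 and 164 CPM in A549 controls and 44.7, 46.3 and 37 CPM after treatment, and 153, 158 and 164 CPM in Huh7 controls and 65.9, 62.7 and 67.3 CPM after treatment. Its fall was clear of overlap in both lines and larger in A549 cells (difference -0.69 ± 0.11). H4C1 fell by similar amounts, with -1.87 ± 0.09 and -1.62 ± 0.08. H3C12 was far lower in Huh7 cells, at 1.58–2.5 CPM against 157–158 CPM in A549 controls, and had log2 fold changes of -2.32 and -0.64. In H3C15, 1 treated A549 library stood at 5.49 CPM beside 68.1 and 68.7 CPM in the others.

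**Figure D3:**
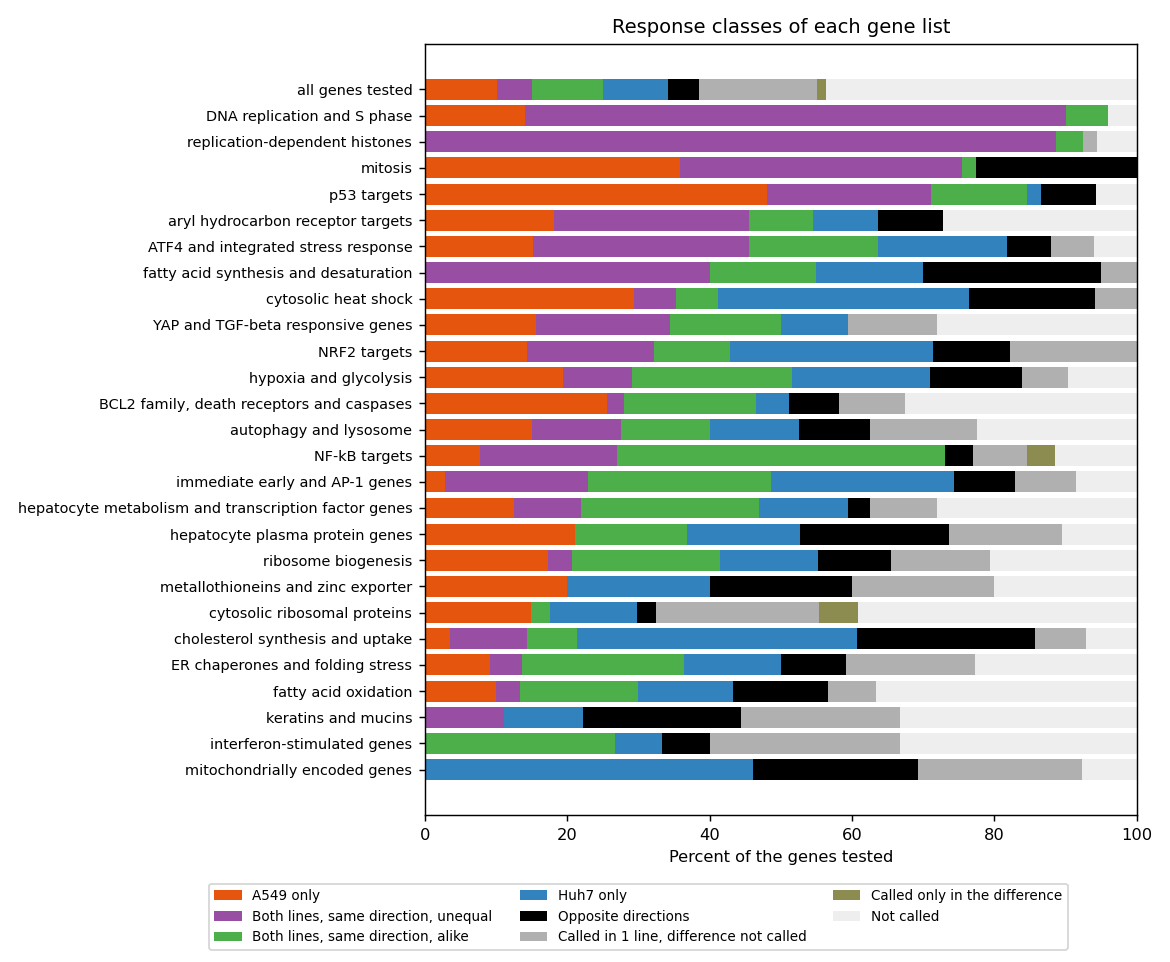
Share of each gene list (x axis, percent of the genes tested) in each response class, with all 13022 genes in the top bar. Replication, histone and mitosis genes are mainly purple (both lines, unequal) and orange (A549 only), p53 targets are orange for 25 of 52, and the cholesterol list is mainly blue (Huh7 only, 11 of 28) and black (opposite directions, 7 of 28).

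Lipid synthesis genes mostly fell in Huh7 cells, and for most of them the difference was higher in A549 cells, where some fell less, some rose and some fell alike. The cholesterol list of 28 genes covers synthesis and uptake and also holds the exporter ABCA1. Of these genes, 24 fell and none rose in Huh7 cells, while 7 rose and 7 fell in A549 cells (12 and 6 with upper quartile scaling). The difference was higher in A549 cells for 21 and lower for 1. The medians were 0.01 in A549 and -0.75 in Huh7 cells. By class, 11 responded in Huh7 cells only, 7 moved in opposite directions, 3 fell in both by unequal amounts, 2 in both alike, 1 responded in A549 cells only, 2 were called in 1 line without a called difference, and 2 were not called. The opposite members included HMGCS1, the synthase at the head of the pathway, MVD, SQLE, TM7SF2 and MSMO1 further along it, and the exporter ABCA1.

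INSIG1, which holds SREBP back and is itself a SREBP target, was at 61.6, 51.8 and 56.9 CPM in A549 controls and 60.8, 59.4 and 70.6 CPM after treatment, and at 216, 208 and 211 CPM in Huh7 controls and 64.9, 61.1 and 61.4 CPM after treatment. The A549 groups overlapped and were called only with upper quartile scaling, and the Huh7 libraries fell well clear of their controls (log2 fold change -1.76 ± 0.07), a difference of 1.93 ± 0.10 (adjusted p = 1.49e-08). MVD, a decarboxylase of the mevalonate pathway, rose from 14.5–19.6 to 26.6–27.7 CPM in A549 cells and fell from 149.7–158 to 56.4–57.7 CPM in Huh7 cells.

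Of 20 genes of fatty acid synthesis and desaturation, 18 fell and 2 rose in Huh7 cells, and 10 fell and 6 rose in A549 cells (10 and 8 with upper quartile scaling). The difference was higher in A549 cells for 15 and lower for 1, ELOVL5, and the medians were -0.21 and -0.88. ACSS2, which makes acetyl-CoA from acetate, was at 21, 20.2 and 19.9 CPM in A549 controls and 31.1, 36.2 and 31.4 CPM after treatment, and at 49.9, 52.5 and 52.4 CPM in Huh7 controls and 18.4, 16.3 and 14.4 CPM after treatment. It rose in A549 and fell in Huh7 cells without overlap, with a difference of 2.33 ± 0.14 (adjusted p = 4.27e-08). FASN, the fatty acid synthase, fell in both lines (-0.41 ± 0.05 and -1.36 ± 0.05), as did the desaturase SCD (-0.62 ± 0.04 and -1.34 ± 0.04), each further in Huh7 cells. GPAM, which starts glycerolipid synthesis, fell from 128–134 to 46.8–52.2 CPM in Huh7 cells, with a rise in A549 cells that was called only with upper quartile scaling (0.12 with the scaling used here). PNPLA3, a lipid droplet protein, fell from 29.1–30.9 to 6.36–7.89 CPM in Huh7 cells and was at 2.46–5.05 CPM in A549 controls. SREBF1, the gene of the factor that drives this pathway, fell alike in both lines, with -0.91 ± 0.07 and -0.99 ± 0.07 and a difference of 0.08 ± 0.10 (adjusted p = 0.566). LPIN1, DGAT2, ACSL4 and ACACB were, with ACSS2, the 5 members that moved in opposite directions.

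The 30 genes of fatty acid oxidation were split, with 7 up and 6 down in A549 cells and 7 up and 9 down in Huh7 cells. Over all genes, 17.4% rose and 19.8% fell in A549 cells, and 17.9% and 19.4% in Huh7 cells. Most of these counts were near those shares, so they are no result about the list. CPT1A, the gatekeeper of mitochondrial fatty acid entry, rose from 16.9–17.3 to 43–45.6 CPM in Huh7 cells and lay at 147–154 CPM in control and 141–167 CPM in treated A549 cells, where the groups overlapped. PDK4, a kinase that turns off glucose oxidation, fell in A549 and rose in Huh7 cells (-0.66 ± 0.13 and 1.07 ± 0.20), as PPARGC1A did. PPARA (0.45 and -0.54) had the reverse signs.

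**Figure D4:**
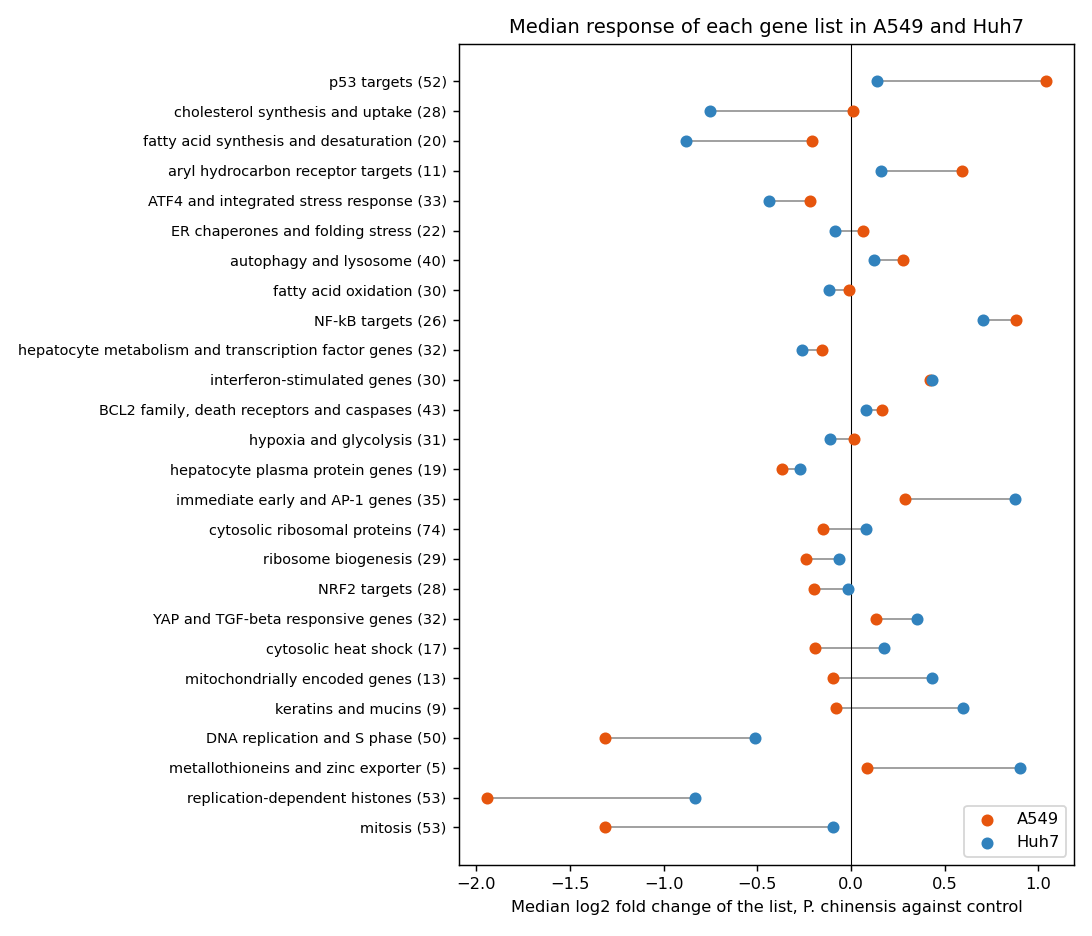
Median log2 fold change (x axis) of each of 26 gene lists in A549 (orange) and Huh7 cells (blue), with the number of genes tested in brackets, sorted by the median difference. The p53 list has the highest difference, with medians of 1.04 and 0.14, and the mitosis list the lowest, with -1.31 and -0.10, while the interferon and NF-kB lists lie close together in both lines.

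Inflammatory genes rose in both lines. Of 26 NF-kB targets, 20 rose and 1 fell in A549 cells, 19 rose and none fell in Huh7 cells, and the difference was called in 9, with 7 higher and 2 lower in A549 cells. The medians were 0.88 and 0.71, and 12 of the 26 were called alike. CXCL8, the neutrophil chemokine interleukin 8, was at 0.388, 2.12 and 0.89 CPM in A549 controls and 10, 9.26 and 13.2 CPM after treatment, and at 26, 28.3 and 24.3 CPM in Huh7 controls and 89.1, 81.6 and 90 CPM after treatment. It rose in both lines without overlap, from a lower level and by more in A549 cells (difference 1.33 ± 0.36, adjusted p = 0.00678). TNFAIP3, a brake on NF-kB, rose alike (1.70 ± 0.26 and 1.98 ± 0.21), and so did the cytokine gene IL32 (1.29 ± 0.20 and 1.34 ± 0.13) and the transcription factor IRF1 (1.15 ± 0.13 and 1.23 ± 0.13). ICAM1, an adhesion molecule, rose in A549 cells only, from 0.202–1.39 to 2.41–3.78 CPM, while it stood at 125–144 CPM in Huh7 controls and at 157–158 CPM after treatment, a small rise that was called with upper quartile scaling alone. The NF-kB subunit genes NFKB2 (1.34 and 0.75) and RELB (1.32 and 0.41) rose in both lines and further in A549 cells.

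Interferon-stimulated genes were close to each other in the lines: of 30, 12 rose and 2 fell in A549 cells, 14 rose and 2 fell in Huh7 cells, and the difference was called in 4. The medians were 0.42 and 0.43. The antiviral factor SAMD9 (1.22 ± 0.20 and 1.08 ± 0.23) and IFIT2 (1.51 and 1.05) rose alike. The antiviral synthetases OAS1 (-1.04 and 0.54) and OAS3 (-0.73 and 0.60) fell in A549 and rose in Huh7 cells.

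Immediate early and AP-1 genes rose in both lines, in more members in Huh7 cells, though the difference between these counts was not tested. Of 35 tested, 25 rose and 6 fell in Huh7 cells, against 18 and 2 in A549 cells, and the medians were 0.87 and 0.29. Gene by gene, the difference ran from -2.24 to 2.30 with a median of -0.10, against -0.02 over all genes. The difference was lower in A549 cells for 13 and higher for 7, and 9 responded in Huh7 cells only, namely FOS, JUNB, IER2, NR4A3, KLF10, DUSP1, BHLHE40, AREG and ETV5, of which ETV5 fell. DUSP1, a phosphatase that turns off MAP kinases, was at 171, 174 and 180.2 CPM in A549 controls and 182, 173 and 201 CPM after treatment, and at 19.7, 22.9 and 21.8 CPM in Huh7 controls and 97.6, 94.6 and 97.7 CPM after treatment. The A549 groups overlapped and the Huh7 groups were separate, with a difference of -2.08 ± 0.09 (adjusted p = 3.97e-09). FOS, a subunit of AP-1, rose from 3.77–5.01 to 12.9–18.5 CPM in Huh7 cells and had -0.32 ± 0.19 in A549 cells.

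Other members of that list rose in both lines and further in A549 cells. FOSB, another AP-1 subunit, was at 0.129, 0.808 and 0.792 CPM in A549 controls and 17.7, 15.7 and 36.6 CPM after treatment, and at 3.12, 2.95 and 3.07 CPM in Huh7 controls and 31.4, 30.2 and 29.5 CPM after treatment. Its log2 fold changes were 4.99 ± 0.42 and 3.26 ± 0.29, the largest in A549 cells among the genes named by the rule, and they rest on few counts in the A549 controls. Its difference of 1.73 was lost without replicate 1 of those controls (adjusted p = 0.0619). EGR1, a growth factor response gene, rose by 3.65 ± 0.31 and 1.36 ± 0.19, and ATF3, a stress factor, by 3.08 ± 0.32 and 1.81 ± 0.21, a difference that was lost without replicate 3 of the A549 controls (adjusted p = 0.0577). DUSP6, a phosphatase of ERK, rose from 9.3–11.8 to 23–32.9 CPM in A549 cells and fell from 199.8–220.2 to 146–150.1 CPM in Huh7 cells, while the orphan receptor NR4A1 fell in A549 and rose in Huh7 cells (-1.32 and 0.37). The AP-1 site TGACTCA was in 8.89% of promoters of genes that rose in both lines by unequal amounts (16 of 180) and in 5.92% of those that rose alike (30 of 507), against 2.95% of all genes tested with a promoter and 4.9% of all promoters in the table.

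The stress lists differed in their direction. Of 17 cytosolic heat shock genes, 9 fell and 1 rose in A549 cells, 10 rose and 2 fell in Huh7 cells, and the difference was lower in A549 cells for 14. The changes were small, with medians of -0.19 and 0.18. HSPA8, the constitutive HSP70, went from 1837–1878 to 2227–2370.3 CPM in Huh7 cells (0.32 ± 0.04) and had -0.06 ± 0.04 in A549 cells. HSP90AA1, HSPB1 and STIP1 were opposite in sign. Among 28 NRF2 targets, which answer oxidants, 15 fell and 4 rose in A549 cells, and 11 rose and 9 fell in Huh7 cells. HMOX1, the heme oxygenase, was at 208, 223 and 216 CPM in A549 controls and 259.5, 243 and 268 CPM after treatment, and at 31.7, 36.6 and 32.6 CPM in Huh7 controls and 148, 160.5 and 163 CPM after treatment. It rose a little in A549 and strongly in Huh7 cells (0.25 ± 0.06 and 2.22 ± 0.06, difference -1.97 ± 0.08, adjusted p = 3.97e-09). The cystine carrier SLC7A11 fell in Huh7 cells only (-0.01 and -0.89). GCLC, a subunit of the enzyme that limits glutathione synthesis, fell in A549 and rose in Huh7 cells (-0.44 and 0.27).

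Of 11 metallothionein and zinc exporter genes listed, 9 were in the deposited table and 5 were tested. In A549 cells 1 of these rose and 1 fell, which is near the 17.4% and 19.8% over all genes. In Huh7 cells 3 rose and none fell, against 17.9% and 19.4% over all genes. MT2A, which binds metals, went from 42.7–44.6 to 125–165 CPM there and lay at 28.7–33.2 CPM in control and 29.1–38.8 CPM in treated A549 cells, a difference of -1.57 ± 0.17, and MT1X rose in Huh7 and fell in A549 cells (1.36 and -0.56). As near-identical genes, the metallothioneins are uncertain one by one. Of 11 targets of the aryl hydrocarbon receptor, which senses many plant compounds, 6 rose and 1 fell in A549 cells, and 4 rose and 2 fell in Huh7 cells. The cytochrome gene CYP1A1 rose from 0.198–0.505 to 4.53–6.51 CPM in A549 and from 131–139 to 389.7–402 CPM in Huh7 cells. CYP1B1 had the reverse order, from 97.5–109 to 219–243 CPM in A549 and from 2.26–2.9 to 20.4–23.1 CPM in Huh7 cells. The line that started lower had the larger log2 fold change in both genes, 3.59 against 1.54 for CYP1A1 and 1.19 against 2.95 for CYP1B1. TIPARP, a feedback enzyme of this receptor, rose by 1.83 ± 0.08 and 1.14 ± 0.08.

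Of 33 genes of ATF4 and the integrated stress response, many of them enzymes of amino acid synthesis, 17 fell and 7 rose in A549 cells (12 and 7 with upper quartile scaling) and 20 fell and 5 rose in Huh7 cells, with medians of -0.22 and -0.44. The difference was higher in A549 cells for 18 and lower for 5. ASNS, the asparagine synthetase, fell in both lines (-0.22 ± 0.07 and -1.10 ± 0.06) and further in Huh7 cells, its fall in A549 cells being lost with upper quartile scaling, and TRIB3, a pseudokinase, fell in Huh7 cells only (-0.05 ± 0.07 and -0.98 ± 0.06). DDIT3 (CHOP) rose in both alike (1.59 ± 0.24 and 1.28 ± 0.19). CHAC1, which degrades glutathione, rose in A549 cells only (0.97 and -0.30). The 22 genes of endoplasmic reticulum folding had 8 up and 5 down in A549 cells and 3 up and 9 down in Huh7 cells, the widest difference being HYOU1 (0.15, called with upper quartile scaling alone, and -0.56). Of 40 autophagy and lysosome genes, 22 rose and 2 fell in A549 cells and 13 rose and 8 fell in Huh7 cells. Of 31 hypoxia and glycolysis genes, 8 rose and 13 fell (12 and 7 with upper quartile scaling) against 6 and 15 (7 and 11), with PFKP up from 0.409–0.503 to 2.02–3.59 CPM in Huh7 cells and PFKFB4 in opposite directions (0.70 and -1.01). Of 32 YAP and TGF-beta responsive genes, 12 rose and 6 fell in A549 cells (14 and 1 with upper quartile scaling) and 15 rose and 1 fell in Huh7 cells. The matricellular gene CCN1 rose further in Huh7 cells (0.33 and 1.35), and CCN2 rose in A549 cells only (1.15 and -0.03).

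The plasma protein genes of the liver that could be tested were more often down than up in both lines. Of 45 such genes listed, 38 were in the deposited table and 19 passed the count minimum in both lines. The Huh7 counts therefore do not cover genes that were too low in A549 cells. Of the 19, 8 fell and 3 rose in A549 cells, and 11 fell and 2 rose in Huh7 cells. APOB, the structural protein of low-density lipoprotein, fell from 11162–11397 to 5719.9–6340.3 CPM in Huh7 cells, while in A549 cells it was hardly detected, at 0.202–0.647 CPM in controls and 1.21–1.54 CPM after treatment. The fibrinogen genes FGA (-1.58 and 0.31) and FGB (-2.44 and 0.68) fell in A549 and rose in Huh7 cells. HNF4A, a master factor of hepatocytes, was at 118, 113 and 127 CPM in A549 controls and 49.2, 45.2 and 46.6 CPM after treatment, and at 465, 446 and 461 CPM in Huh7 controls and 476, 464 and 473 CPM after treatment. It fell in A549 cells without overlap and its groups overlapped in Huh7 cells (difference -1.38 ± 0.07, adjusted p = 8.1e-09). Of 52 listed genes of liver metabolism and liver transcription factors, 32 were tested. In A549 cells 10 of these fell and 7 rose (7 and 8 with upper quartile scaling), and in Huh7 cells 15 fell and 3 rose. CEBPA (-0.09 and -0.75) and the urea cycle gene ASS1 (0.18 and -0.88) fell in Huh7 cells only, and CPS1, another urea cycle gene, in A549 cells only (-1.35 and -0.12). The drug-metabolising CYP3A5 rose from 1.68–2.59 to 5.42–10.5 CPM in A549 cells and had a log2 fold change of 0.63 in Huh7 cells (adjusted p = 0.0504), where it was called with upper quartile scaling and with scaling within each line, and its difference was lost without replicate 3 of the A549 controls (adjusted p = 0.0517).

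Mitochondrially encoded genes rose in Huh7 cells: 11 of 13 rose and none fell there (13 with upper quartile scaling), and 1 rose and 3 fell in A549 cells (2 and 3), with medians of 0.43 and -0.10. MT-ND2, a subunit of complex I, lay at 2068, 2014 and 1713 CPM in A549 controls and 1236, 1539.7 and 1526 CPM after treatment, and at 985, 784 and 966 CPM in Huh7 controls and 1300.0, 1202 and 1351 CPM after treatment. Both lines were without overlap and opposite in direction, with a difference of -0.92 ± 0.14 (adjusted p = 0.000204). Of 74 cytosolic ribosomal protein genes, 28 fell and 1 rose in A549 cells (13 and 2 with upper quartile scaling), and 14 rose and 2 fell in Huh7 cells (23 and 2). Over all genes, 19.8% fell in A549 and 17.9% rose in Huh7 cells, so the Huh7 rises of the list were near the general share. With upper quartile scaling, 1971 of the 13022 genes fell in A549 cells, and the falls of the list were near that share too. The medians were -0.15 and 0.08. Of 29 genes of ribosome biogenesis, 16 fell and none rose in A549 cells, and 10 fell and 7 rose in Huh7 cells (6 and 9 with upper quartile scaling). NCL, the nucleolin gene, was opposite (-0.62 ± 0.09 and 0.31 ± 0.09). Among 9 keratin, mucin and related genes, KRT19 rose in both lines (1.65 and 0.99) and KRT18 was opposite (-0.26 and 0.35).

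Outside the lists, several genes were called in 1 line only, with a called difference. In A549 cells, the gene for carboxypeptidase M, itself named CPM, rose by 2.13 ± 0.14 on the log2 scale, against 0.01 ± 0.13 in Huh7 cells, where the groups overlapped. TRANK1 rose from 7.68–9.8 to 25.4–35.1 CPM, with a log2 fold change of 0.30 in Huh7 cells. SAMD11 fell from 21.4–24.6 to 2.88–4.22 CPM and the giant muscle protein gene NEB from 29.1–38.7 to 6.38–10 CPM in A549 cells, with 0.08 and 0.21 in Huh7 cells. NEB was also called in Huh7 cells, upward, with upper quartile scaling. HMGXB4 fell to 2.46–7.35 CPM in A549 cells, but its 3 Huh7 controls spread over 8.45–27.4 CPM.

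In Huh7 cells, C11orf86 rose from 0.171–0.628 to 6.02–7.7 CPM and had the lowest difference of all genes named by the rule (-4.02 ± 0.36), with A549 libraries at 18.8–26.5 in controls and 16.4–20.1 CPM after treatment. GADD45B, a stress gene, was at 16.6, 18.9 and 18.6 CPM in A549 controls and 18.1, 15.7 and 18.3 CPM after treatment, and at 8.79, 11.6 and 8.4 CPM in Huh7 controls and 62.3, 54.5 and 62.8 CPM after treatment. It thus rose in Huh7 cells only, with a difference of -2.69 ± 0.18 (adjusted p = 1.06e-07). ZNF385A had 0.48 (adjusted p = 0.125) and 3.15. STAT5B fell in Huh7 cells only, with widely spread libraries, from 25.8–30.6 to 3.3–20.2 CPM. TUBA1A, a tubulin gene with close paralogues that can share reads, rose in both lines and by far more in Huh7 cells, from 2.04–3.41 to 38.4–41.1 CPM against 72.2–87.6 to 162–164 CPM in A549 cells.

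The largest responses shared by both lines included, beside FOSB, ATF3 and CXCL8, the neuropeptide precursor VGF (2.43 and 4.34) and the secreted protein gene CRISPLD2. CRISPLD2 was at 5.05, 5.35 and 4.95 CPM in A549 controls and 22.8, 24.2 and 27.2 CPM after treatment, and at 5.11, 5.97 and 5.33 CPM in Huh7 controls and 27.1, 28.6 and 32.7 CPM after treatment. Its levels and rises were close in both lines, 2.25 ± 0.13 and 2.40 ± 0.12, and the difference was -0.16 ± 0.18 (adjusted p = 0.578). Shared falls included, beside histones, the semaphorin SEMA6B (-1.69 ± 0.24 and -1.62 ± 0.14) and the folate enzyme SHMT1, whose control libraries spread over 13.2–39.2 CPM in A549 and over 11.2–35.8 CPM in Huh7 cells.

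The other herb extracts sequenced in the study, B. chinense and P. umbellatus, were compared with the same control libraries as P. chinensis, so the values stand side by side without a test. In a fit of all 24 libraries, the median log2 fold change of the p53 targets in A549 cells was 1.06 for P. chinensis, 0.87 for B. chinense and 0.80 for P. umbellatus, and in Huh7 cells, in this order, it was 0.12, 0.06 and 0.02. For the mitosis genes the medians were -1.29, -1.0 and -0.92 in A549 cells and -0.11, -0.05 and 0.17 in Huh7 cells. The cholesterol list had 0.04, -0.05 and -0.06 in A549 cells and -0.77, -0.28 and -0.38 in Huh7 cells. The NF-kB list had 0.90, 0.59 and 0.74 in A549 cells and 0.68, 0.09 and 0.14 in Huh7 cells. For the histone genes, the Huh7 medians were -0.84, -0.44 and -0.84.

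**Figure D5:**
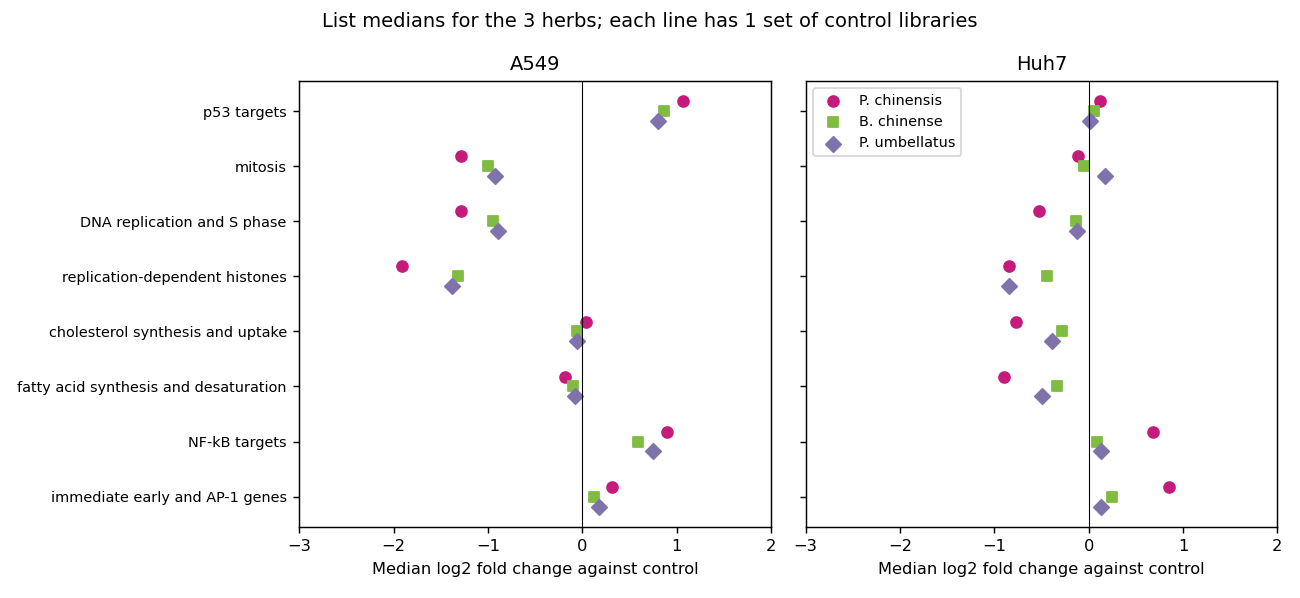
Median log2 fold change against control (x axis) of 8 gene lists with P. chinensis and the other herbs (B. chinense, P. umbellatus) in A549 (left) and Huh7 cells (right), from a fit of all 24 libraries in which the herbs share the control libraries of their line. The herbs lie on the same side of 0 for p53, mitosis, replication and histone genes in the A549 panel. In the Huh7 panel P. chinensis lies apart from the other extracts for the NF-kB and immediate early lists (0.68 and 0.86 against 0.09 to 0.24).

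The number of genes with opposite directions depended on the libraries fitted and on the threshold, and which genes these were also depended on the scaling. Fitted with the other herbs' libraries, which share 1 estimate of the spread, 300 genes were called in opposite directions in place of 568, of which 296 were the same genes. With a minimum absolute log2 fold change of 1 in each call, 10 genes were opposite. With upper quartile scaling, 597 genes were opposite, of which 417 were among the 568.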

How the data were processed

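RNA of A549 and Huh7 cells was extracted (RNeasy Plus Mini), depleted of ribosomal RNA with a stranded total RNA kit and sequenced as paired reads. The authors checked reads with FastQC, quantified them with kallisto on Ensembl cDNA (GRCh38.p13) and deposited estimated counts per gene, rounded to whole numbers and restricted to protein-coding genes with a sufficient average count. Reads of near-identical genes can be split between them in such estimates.

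The deposited estimated counts of the 12 control and P. chinensis libraries were fitted together with edgeR 4.0.16 (R 4.3.3): TMM factors, prior count 2, 1 coefficient per group, the quasi-likelihood test and Benjamini-Hochberg adjustment over 13022 genes, called at 0.05. Within-line contrasts and their difference came from that fit. Depth ran from 8160045 to 24345541 counts per library. The labels do not pair replicates, and same-numbered control and treated libraries had correlations of deviations between -0.03 and 0.01, so no block was used. Alternatives were DESeq2 1.42.0, voom of limma 3.58.1, other scalings, filters, thinning, all 24 libraries and leaving out each library.

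Tested on simulated data for 13022 genes, of 200 changed in A549 only by 1 on the log2 scale, 146 were called in the difference, with 8 false calls among 12622 unchanged genes. The simulation gave each gene the spread of the general trend and changed far fewer genes than were called in the data. Its false calls therefore do not measure the error among the genes called here. Members and gene lists were chosen with earlier results of these data known. The naming rule took, among genes with a mean of 50 counts or more in each line and libraries that did not overlap, the 6 highest and 6 lowest differences, the 5 largest rises and 5 largest falls of each class specific to a line and of the shared classes, and the 6 of largest opposite change in each direction (shared and opposite classes ranked by the smaller absolute log2 fold change), with up to 4 members per list by size of the difference. It gave 137 genes, and 52 more were named after their values were seen. Some members of the lists, though counted, are not reported here by name. Promoter letters were searched in RefSeq windows with 1 start per gene, the furthest upstream. Figures were drawn with matplotlib 3.10.9.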

Additional observations from a re-analysis of the deposited data

Results flagged for a closer look

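The lines differed in their response in 3884 genes by the test of the difference itself, and 568 of these were called in opposite directions. Among the 6 genes in each direction that ranked highest by the smaller of their absolute log2 fold changes in both lines, which are not in every case those of widest difference, the difference (A549 minus Huh7, log2 scale) was 2.80 for SLCO2B1, 2.50 for GREB1, 2.16 for DRAM1, 2.06 for ORAI3, 1.65 for LRP1 and 1.56 for NAV2, all up in A549 cells. It was -3.06 for RND1, -2.88 for PPARGC1A, -1.91 for ZC3H12A, -1.84 for EDARADD, -1.63 for CEBPD and -1.46 for RBM39, all down in A549 cells.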

How the results depend on the processing

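Of the 3884 genes called in the difference, 3734 were called in the same direction by DESeq2, 3621 by voom, 3695 with the size factors of DESeq2 in edgeR, 3775 with upper quartile scaling, 3265 after thinning to the lowest total and 2513 with all 24 libraries, and none changed direction in these settings. Requiring an absolute log2 fold change above 1 left 455 genes up and 405 down in A549 cells, 436 up and 111 down in Huh7 cells, and 369 differences higher and 447 lower in A549 cells. Under it 363 genes responded in A549 cells only, 194 in Huh7 cells only, 103 in both alike, 20 in both unequally and 10 in opposite directions, 584 were called in 1 line without a called difference and 11519 were not called. With all 24 libraries, 1714 genes fell in A549 cells, 1203 differences were lower there, 784 genes responded in Huh7 cells only, 364 in both unequally and 300 in opposite directions. With a mean count above 50, 3540 genes were not called, since fewer were tested. With upper quartile scaling, the median of all genes moved to 0.08 in A549 and 0.06 in Huh7 cells, and 60.3% and 60% of calls were rises against 46.8% and 47.9%. The replicate block within each line gave 1577 differences higher and 1894 lower in A549 cells and 490 opposite genes. Since the numbers did not pair the libraries, it is given here only. Leaving out 1 library at a time gave 1510 to 1864 higher and 1778 to 1917 lower differences, 438 to 588 opposite genes, 1166 to 1328 genes with a response in A549 cells only and 947 to 1229 in Huh7 cells only. The differences that turned sign were not called with all 12 libraries. SEMA6B was 0.027 with voom and ran from -0.27 to 0.14 with 1 library left out, and HBA1 was 2.04 with voom and ran from -4.61 to 3.57. With 1 library left out, SHMT1 ran from -0.21 to 0.71, DCN from -0.016 to 0.39, IL32 from -0.19 to 0.26, SAMD9 from -0.075 to 0.29, TNFAIP3 from -0.49 to 0.19 and IRF1 from -0.16 to 0.022, and IL32 was 0.00496 with DESeq2. The cause was not tested. Of 162 named genes called in the difference, 136 kept their call and direction in every alternative except the log2 minimum. Depth limits genes of few counts, such as ICAM1 and APOB in A549 cells.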
